A study of Mus musculus with 4 samples.

Results

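The genes described here are the Wnt ligands, the receptors and inhibitors that act on them, and the intracellular genes and targets of the pathway. They were taken by symbol from the count tables: every symbol that begins with Wnt, Fzd, Dkk or Sfrp followed by a digit, together with Nkd1, Nkd2, Axin1, Axin2, Lgr4, Lgr5, Lgr6, Lrp5, Lrp6, Tcf7, Tcf7l1, Tcf7l2, Lef1, Wif1, Rnf43, Znrf3, Apcdd1, Notum, Porcn, Wls, Ctnnb1 and Apc. This gave 59 of the 24421 genes in the tables, and 48 of them were counted often enough to be tested. The cells were neural stem cells from the cerebral cortex of C57BL/6J mice at embryonic day 17, kept for 1 day in proliferation medium with 10 ng/mL each of EGF and basic FGF. Both groups carried floxed Prrc2b alleles (Prrc2bf/f). The control group had no further allele given in the labels, and the second group (Prrc2bf/f; Nestin-Cre) also carried Cre under regulatory sequence of Nes, a gene of neural progenitors, so that deletion depends on that sequence being active. Each group had 2 libraries, called control and Nestin-Cre libraries here. Whether the libraries of a group came from separate embryos or cultures is not given in the labels, so the only error behind each p-value is that from library to library, which may be technical.

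Wnt proteins are lipid-modified signals that bind Frizzled receptors together with Lrp5 or Lrp6. In the canonical branch this spares beta-catenin (Ctnnb1) from the destruction complex of Apc and Axin, and beta-catenin then activates target genes with TCF and LEF factors. In the developing cortex the pathway is known for its part in patterning from the cortical hem and in the balance of progenitor division and neuron production, and ligands made by progenitors also act on brain vessels.

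The libraries held 25936794 to 28263272 counts assigned to genes, of which the Wnt genes took 0.292% to 0.313%. Levels are CPM, the usual count scaled for library size, with library sizes adjusted by the trimmed mean of M values, given as mean ± SD over n = 2 libraries, and each fold change ± SE sets Nestin-Cre over control. Prrc2b itself stood at 588 and 594 CPM in control and at 575 and 573 CPM in the Nestin-Cre libraries (log2 fold change -0.04 ± 0.02, edgeR quasi-likelihood test, adjusted p = 0.134). The ratio was 0.970 with a 95% interval of 0.940 to 1.001. This gene total does not check the deletion. Which exons are floxed is not given in the labels, and reads from exons outside a deleted part would still be counted. The Y-linked gene Ddx3y stood at 24.5 and 23.7 CPM in control and at 0 in both Nestin-Cre libraries. Xist, the X-inactivation RNA made in female cells, stood at 1673 and 1615 CPM in control and at 2209 and 2119 CPM in the Nestin-Cre libraries. The controls thus held transcripts of both sexes and the Nestin-Cre libraries no count of Ddx3y or of Uty, Kdm5d and Eif2s3y, also on the Y chromosome, and sex, Cre and Prrc2b genotype cannot be told apart in any value below. Genes that mark neural stem cells and radial glia were all detected in each group, with a summed level of 9824 to 9913 CPM in control and 8356 to 8375 CPM in the Nestin-Cre libraries. Vim and Ptprz1 had the highest counts among them.

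Among the 48 tested Wnt genes, 6 were higher and 12 were lower in the Nestin-Cre libraries, at an adjusted p under 0.05 in the fit over all genes. The genes that rose were the ligands Wnt5a and Wnt4, the receptors Fzd10, Fzd9 and Lrp5, and the feedback inhibitor Nkd1. Those that fell were the ligands Wnt7a, Wnt7b and Wnt5b, the receptors Fzd1, Fzd3, Fzd5, Fzd6, Fzd7 and Fzd8, the secreted proteins Dkk3 and Sfrp1, and the transcription factor Tcf7. None of these differences reached 2-fold. The 18 genes called were 37.5% of the Wnt genes tested, close to the 33.1% called among all 15012 genes. Higher calls made up 12.5% against 15.1% of all genes, and lower calls 25.0% against 18.1%. The median log2 fold change was -0.04 for the Wnt genes and 0.0047 for all genes, and the median absolute value was 0.20 against 0.12. Upper quartile scaling turned the balance of all genes from 2263 higher and 2711 lower to 2939 higher and 2288 lower, while the Wnt genes then stood at 6 higher and 11 lower. For 35 Wnt genes every library of one group lay above both of the other (72.9%), against 64.9% of all genes. When the test asked for a change beyond 1.2-fold, 7 Wnt genes passed (14.6%, against 6.92% of all genes), namely Dkk3, Fzd1, Fzd8, Tcf7 and Wnt7a as lower and Nkd1 and Fzd10 as higher. DESeq2 called 14 (29.2%, against 18.0%), leaving out Wnt4, Fzd9, Lrp5 and Fzd6.

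**Figure D1:**
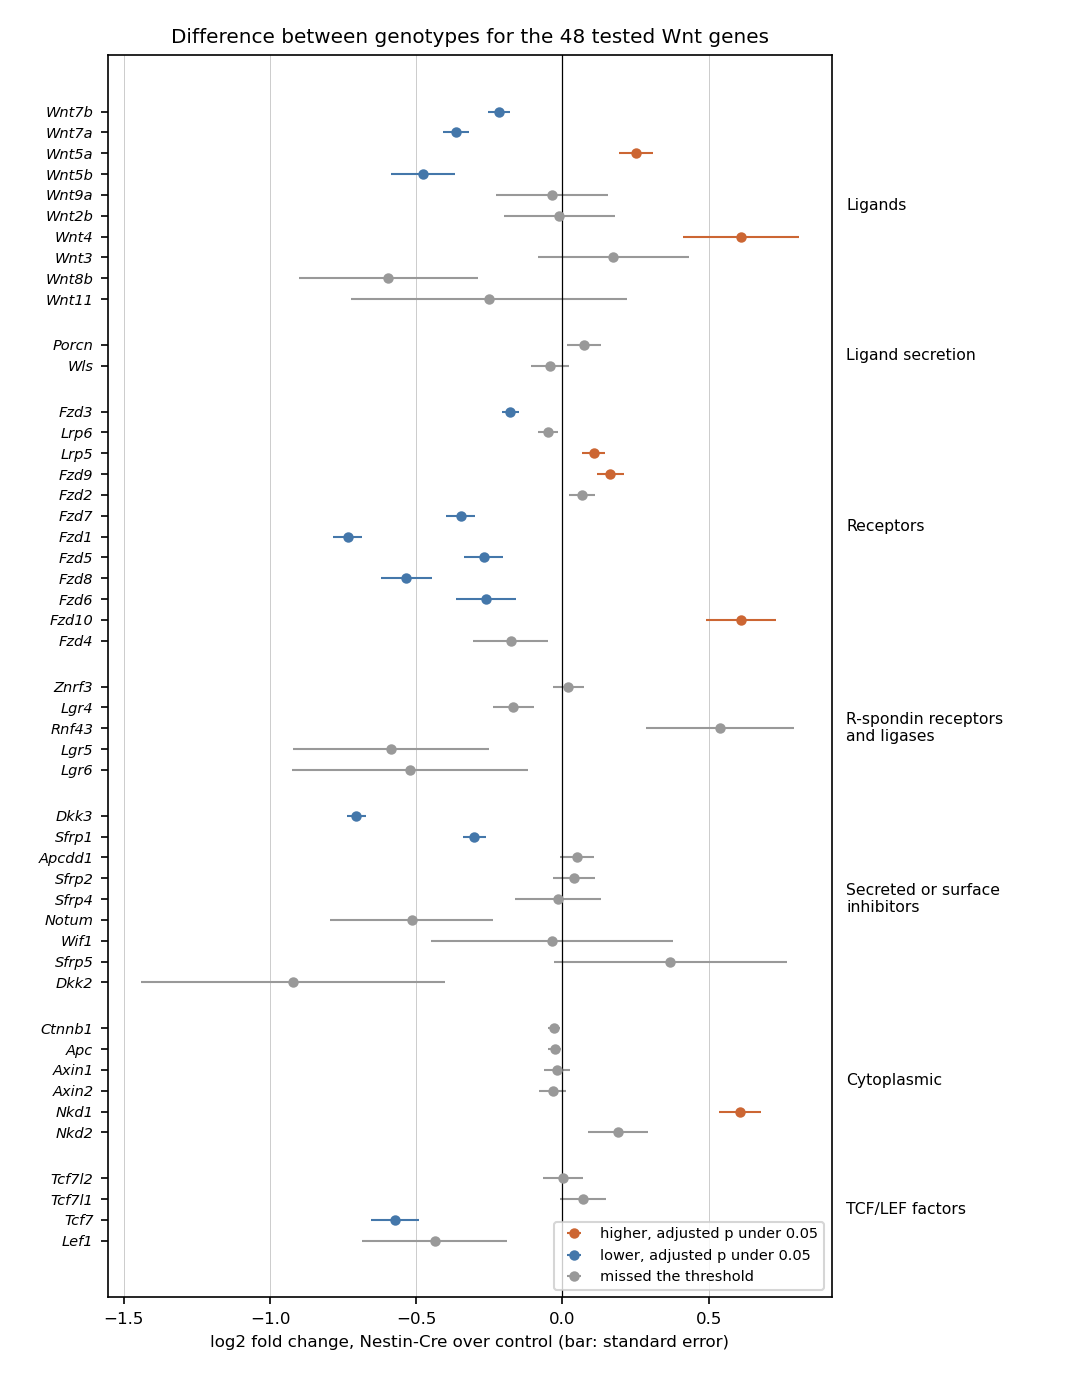
Log2 fold change of each tested Wnt gene, Nestin-Cre libraries over control (x axis, bar: standard error of the edgeR fit, n = 2 libraries a group), grouped by role. The 12 genes called lower include 6 Frizzled receptors, and the cytoplasmic genes Ctnnb1, Apc, Axin1 and Axin2 lie next to 0.

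Ligands. Of 19 Wnt genes in the tables, 10 were tested, of which 3 fell, 2 rose and 5 missed the threshold. That is 50.0% called, against 33.1% of all genes. Wnt7a and Wnt7b, closely related ligands that neural progenitors make and that act on brain endothelium, were the most abundant. Per kilobase of exon they held 37.96% (Wnt7a) and 42.6% (Wnt7b) of the summed Wnt ligand level in control, and 34.6% and 43.0% in the Nestin-Cre libraries. Wnt7a (chromosome 6, 91363981 to 91411363, minus strand, mm10) stood at 66.2 and 67.5 CPM in control and at 50.8 and 53.1 CPM in the Nestin-Cre libraries. The groups lay apart, with a log2 fold change of -0.36 ± 0.04 (edgeR quasi-likelihood test, adjusted p = 1.34e-08). Wnt7b (chromosome 15, 85535437 to 85582473, minus strand) stood at 111.0 and 120.4 CPM in control and at 98.1 and 101.2 CPM in the other group. Both Nestin-Cre libraries were again lower, by a smaller margin (-0.22 ± 0.04, adjusted p = 1.57e-05), and the call was lost in the test against 1.2-fold.

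Wnt5a and Wnt5b, related ligands known mainly for signalling without beta-catenin, moved in opposite directions. Wnt5b had 9.54 and 9.55 CPM in control and 6.83 and 6.89 CPM in the Nestin-Cre libraries (-0.48 ± 0.11, adjusted p = 0.000646). Wnt5a had 29.2 and 31.5 CPM in control against 37.7 and 34.6 CPM, and rose by a log2 fold change of 0.25 ± 0.06 (adjusted p = 0.000769). Wnt4 was scarce and rose from 1.98 ± 0.0905 to 3.02 ± 0.238 CPM (0.61 ± 0.20, adjusted p = 0.0151). That call was lost without control replicate 2 (adjusted p = 0.0863) and without Nestin-Cre replicate 1 (adjusted p = 0.143). The sum of the ligands per kilobase was 55.5 in control and 47.3 in the Nestin-Cre libraries, whereas without Wnt7a and Wnt7b it was 10.8 and 10.6.

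The ligands that missed the threshold were Wnt8b, Wnt3, Wnt11, Wnt9a and Wnt2b, all at 0.369 to 3.01 CPM. Wnt8b, a ligand of the cortical hem, had 1.33 and 1.14 CPM in control and 0.849 and 0.769 CPM in the Nestin-Cre libraries, with a ratio of 0.662 and a 95% interval of 0.431 to 1.017. Wnt3a, the hem ligand that drives growth of the hippocampal field, had 0 counts in every library, which allows a level of up to 0.106 to 0.115 CPM (3 counts, for counting error only). The other untested ligands, Wnt1, Wnt2, Wnt6, Wnt8a, Wnt9b, Wnt10a, Wnt10b and Wnt16, had at most 9 counts in any library, too few to show a difference. Porcn, the enzyme that attaches the lipid to Wnt proteins and lies on chromosome X, stood at 28.9 ± 0.0241 and 30.4 ± 0.0490 CPM. Wls, the carrier that takes them to the cell surface, stood at 25.5 ± 1.89 and 24.8 ± 0.140 CPM. Neither passed (adjusted p = 0.369 and 0.658), with 95% intervals of the ratio of 0.969 to 1.14 for Porcn and 0.885 to 1.06 for Wls.

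**Figure D2:**
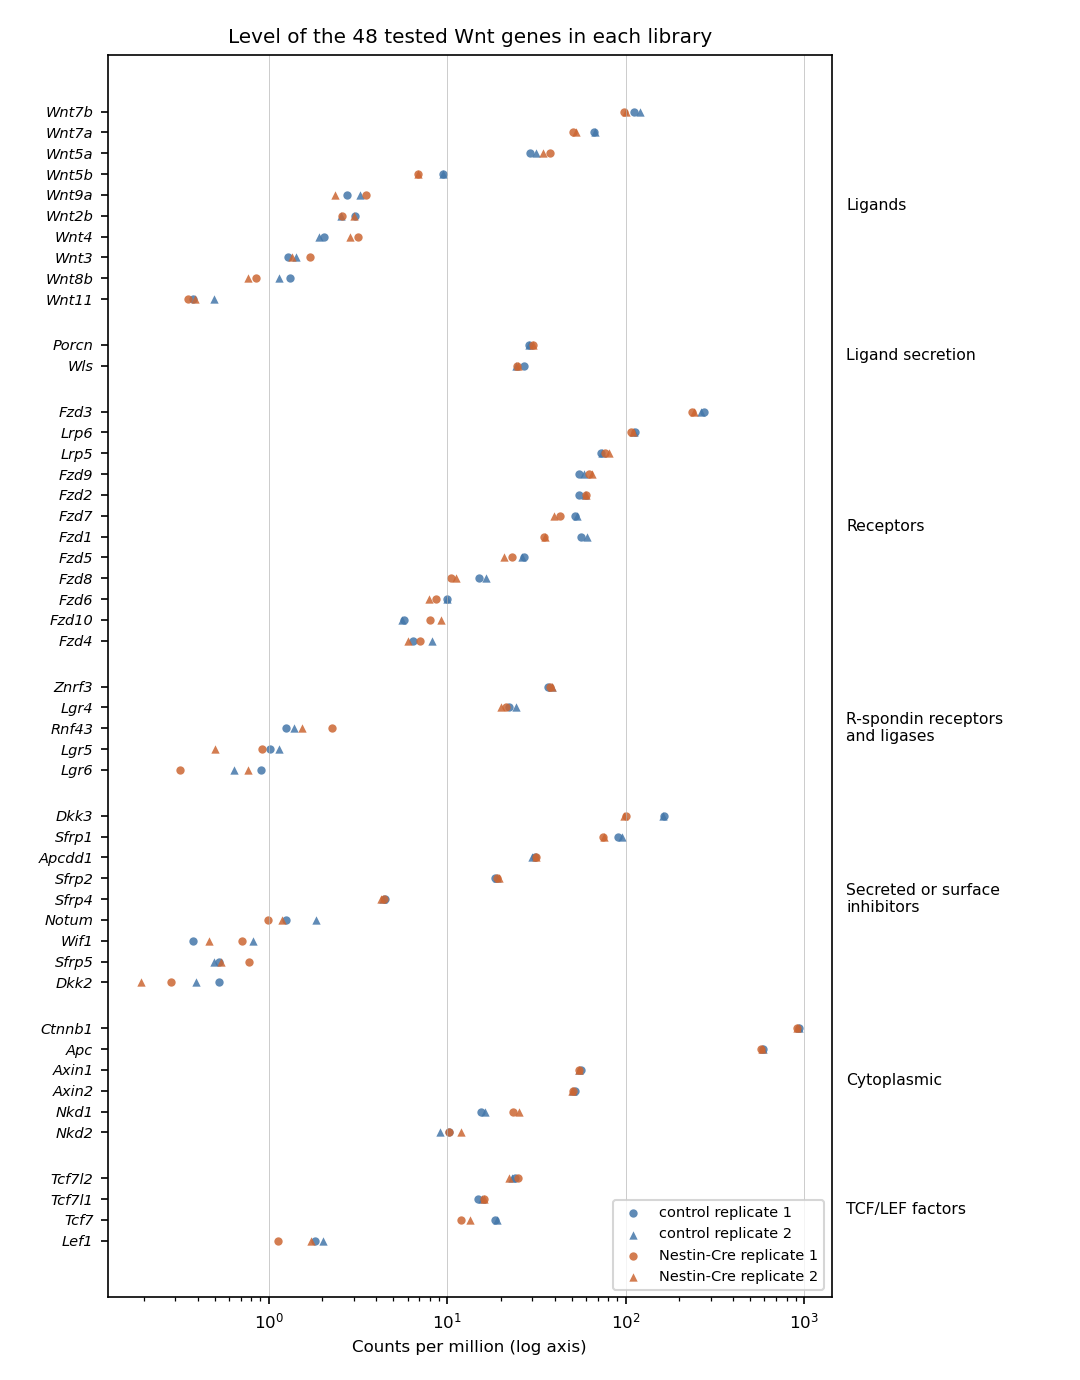
Level of each tested Wnt gene in every library (x axis: CPM on a log scale, one point per library), grouped by role. Wnt7b and Wnt7a lead the ligands and Ctnnb1 and Apc the cytoplasmic genes. The points of 35 of the 48 genes separate by group (72.9%, against 64.9% of all genes), among them Wnt7a, Fzd1, Dkk3, Nkd1 and Tcf7.

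Receptors. All 12 receptor genes were tested, of which 6 fell, 3 rose and 3 missed the threshold, so that 75.0% were called against 33.1% of all genes. The median absolute log2 fold change of the 12 was 0.22, against 0.12 over all genes. In the test against 1.2-fold, 3 of the 12 passed, against 6.92% of all genes. Fzd1 (chromosome 5, 4753839 to 4758035, minus strand) fell most. It had 56.1 and 60.5 CPM in control and 34.9 and 35.2 CPM in the Nestin-Cre libraries, a log2 fold change of -0.74 ± 0.05 (edgeR quasi-likelihood test, adjusted p = 6.63e-15). Fzd7, a member of the same Frizzled subgroup, stood at 51.9 and 53.4 CPM against 42.9 and 39.7 CPM (-0.35 ± 0.05, adjusted p = 4.37e-07). Fzd2, the remaining gene of that subgroup, did not pass: it had 57.0 ± 3.09 and 59.7 ± 0.000539 CPM, and the 95% interval of its ratio was 0.983 to 1.12.

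Fzd8 and Fzd5, which form another subgroup, were both lower. Fzd8 had 15.1 and 16.5 CPM in control and 10.6 and 11.3 CPM in the Nestin-Cre libraries (-0.53 ± 0.09, adjusted p = 5.92e-06). Fzd5 fell from 26.6 ± 0.671 to 22.0 ± 1.64 CPM (-0.27 ± 0.07, adjusted p = 0.00148), a call lost without Nestin-Cre replicate 2 (adjusted p = 0.0547). Fzd3, a receptor known for axon guidance and planar polarity, stood at 276 and 265 CPM in control and 236 and 243 CPM in the Nestin-Cre libraries. Its fall was small but clear of the spread between libraries (-0.18 ± 0.03, adjusted p = 3.23e-06). Fzd6, its closest relative, stood at 9.97 ± 0.0410 and 8.30 ± 0.524 CPM (-0.26 ± 0.10, adjusted p = 0.0492). The Fzd6 call was the weakest of the 18, lost in 11 of 15 alternatives and without any one library (adjusted p = 0.13 and 0.112 without control replicates 1 and 2, and 0.0645 and 0.284 without Nestin-Cre replicates 1 and 2). Fzd4, the receptor for Norrin in vessels, overlapped between the groups (7.37 ± 1.27 and 6.52 ± 0.734 CPM, adjusted p = 0.306).

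Fzd10 and Fzd9 were higher, whereas Fzd4, the other member of their subgroup, missed the threshold as given above. Fzd10 had 5.72 and 5.61 CPM in control and 8.07 and 9.27 CPM in the Nestin-Cre libraries, and thus rose by a log2 fold change of 0.61 ± 0.12 (adjusted p = 9.4e-05). Fzd9 rose from 56.6 ± 2.52 to 63.5 ± 1.71 CPM (0.16 ± 0.04, adjusted p = 0.00383), and was not called without control replicate 1 (adjusted p = 0.0818). Per kilobase of exon Fzd9 was the most abundant Frizzled gene, with 25.1% of the family sum in control and 30.6% in the Nestin-Cre libraries. The share of Fzd1 was 14.1% in control and 9.23% in the other group. The family sum itself was 98.3 and 90.5 CPM per kilobase.

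**Figure D3:**
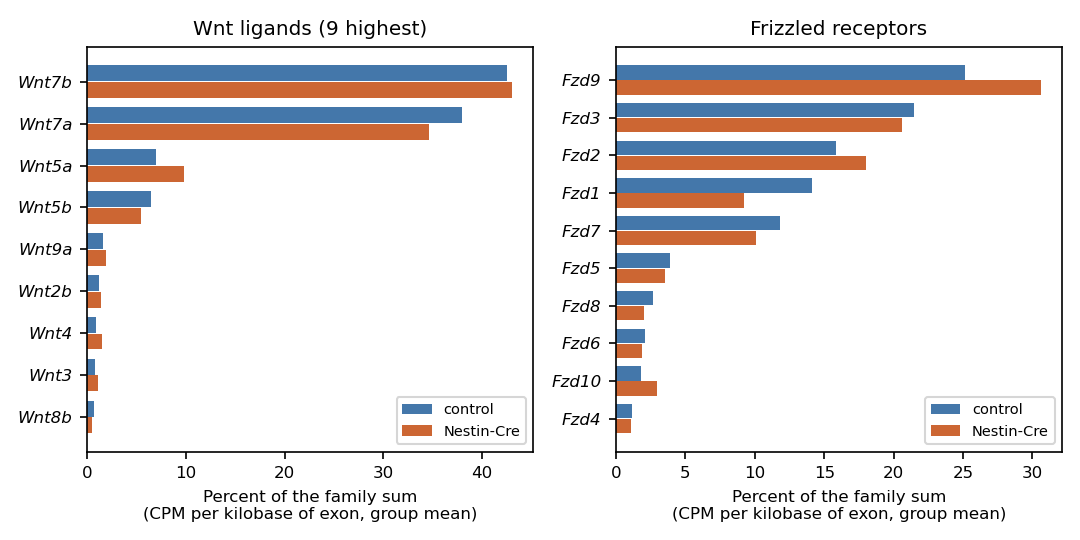
Share of each gene in the summed level of the Wnt ligands (9 highest) and of the Frizzled receptors (x axis: percent of the family sum of CPM per kilobase of exon, group means). Wnt7a and Wnt7b make up most of the ligand level in both groups, and the share of Fzd1 goes from 14.1% to 9.23% while that of Fzd9 goes from 25.1% to 30.6%.

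The co-receptor genes Lrp5 and Lrp6 differed little. Lrp5 stood at 73.3 ± 0.0676 and 79.0 ± 2.61 CPM (0.11 ± 0.04, adjusted p = 0.0362), and the call was lost without control replicate 1 (0.0991), control replicate 2 (0.0984) or Nestin-Cre replicate 2 (0.303). Lrp6 missed the threshold at 112 ± 1.28 and 108 ± 2.07 CPM (adjusted p = 0.298). None of the 5 genes of the R-spondin branch passed, against 33.1% called among all genes. This branch tunes receptor number, since the ligases Rnf43 and Znrf3 remove Frizzled proteins from the surface and the receptors Lgr4, Lgr5 and Lgr6 bind the R-spondins that hold the ligases back. Lgr4 had 22.3 and 24.4 CPM in control and 21.4 and 20.2 CPM in the Nestin-Cre libraries (-0.17 ± 0.07, adjusted p = 0.0591), which passed without control replicate 1 (adjusted p = 0.0261). Rnf43 had 1.25 and 1.38 CPM against 2.26 and 1.54 CPM (adjusted p = 0.102), which passed without Nestin-Cre replicate 2 (adjusted p = 0.0409). Znrf3 stood at 37.7 ± 1.36 and 38.3 ± 0.708 CPM, with a 95% interval of the ratio of 0.941 to 1.09. Lgr5 and Lgr6 were scarce at 0.544 to 1.08 CPM, and the intervals of their ratios ran from 0.416 to 1.07 and from 0.396 to 1.23.

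Secreted and surface inhibitors. Of 11 genes, 9 were tested, of which 2 fell, none rose and 7 missed the threshold (22.2% called, against 33.1% of all genes). Dkk3, a divergent member of the Dickkopf family whose action on Wnt receptors is less settled than that of Dkk1, had the smallest p of all the Wnt genes. It had 163 and 162 CPM in control and 101.1 and 98.3 CPM in the Nestin-Cre libraries, a log2 fold change of -0.71 ± 0.03 (edgeR quasi-likelihood test, adjusted p = 9.58e-20). Dkk3 lies on chromosome 7 from 112116017 to 112159057 on the minus strand, and both libraries of each group lay close together. Sfrp1, a secreted Frizzled-related protein that binds Wnt ligands, had 90.5 and 95.1 CPM in control and 75.0 and 75.6 CPM in the other group (-0.30 ± 0.04, adjusted p = 5.18e-08). It lies on chromosome 8 from 23411502 to 23449632 on the plus strand. Dkk3 and Sfrp1 were also the most abundant of the Dkk and Sfrp genes per kilobase, with 60.6% and 26.6% of their summed level in control and 51.7% and 30.0% in the Nestin-Cre libraries.

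The other inhibitors did not pass. Sfrp2 stood at 18.8 ± 0.408 and 19.4 ± 0.395 CPM, Sfrp4 at 4.42 ± 0.0723 and 4.36 ± 0.132 CPM, and Apcdd1, a membrane inhibitor that is itself a pathway target, at 30.4 ± 0.665 and 31.5 ± 0.201 CPM. The 95% intervals of their ratios were 0.929 to 1.14 for Sfrp2, 0.804 to 1.22 for Sfrp4 and 0.955 to 1.12 for Apcdd1. Notum, an enzyme that strips the lipid from Wnt proteins, had 1.25 and 1.85 CPM against 0.990 and 1.19 CPM (adjusted p = 0.158). Dkk2, Sfrp5 and Wif1 lay between 0.238 and 0.658 CPM as group means, a depth at which intervals of the ratio reached from 0.254 to 1.10 for Dkk2, from 0.738 to 2.26 for Sfrp5 and from 0.546 to 1.75 for Wif1. Dkk1, the main secreted blocker of Lrp5 and Lrp6, had between 0 and 4 counts in a library, and Dkk4 had 0 in every one, so neither could be compared.

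Cytoplasmic genes. Of 6 genes, 1 rose and 5 missed the threshold (16.7% called, against 33.1% of all genes). Ctnnb1, which encodes beta-catenin, was the most abundant Wnt gene per kilobase, and stood at 934 and 932 CPM in control and at 912 and 916 CPM in the Nestin-Cre libraries. The ratio was 0.980 with a 95% interval of 0.952 to 1.01 (adjusted p = 0.293). Apc and Axin1, scaffolds of the destruction complex, gave ratios of 0.982 (0.951 to 1.01) and 0.986 (0.926 to 1.05). Axin2, a scaffold and the most widely used readout of canonical signalling, had 52.0 and 50.9 CPM against 50.7 and 49.8 CPM. Its ratio was 0.977 with a 95% interval of 0.915 to 1.04 (adjusted p = 0.621). Nkd1, a Dishevelled-binding feedback inhibitor, was the gene of this role that changed. It had 15.6 and 16.3 CPM in control and 23.3 and 25.3 CPM in the Nestin-Cre libraries (0.61 ± 0.07, adjusted p = 1.05e-08), and it lies on chromosome 8 from 88521354 to 88594884 on the plus strand. Its paralog Nkd2 overlapped between the groups, at 10.2 and 9.12 CPM in control and 10.2 and 11.9 CPM in the Nestin-Cre libraries (adjusted p = 0.16).

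TCF and LEF factors. Of 4 genes, Tcf7 fell and the rest missed the threshold (25.0% called, against 33.1% of all genes). Tcf7, which encodes TCF1 (chromosome 11, 52252371 to 52283014, minus strand), had 18.4 and 19.1 CPM in control and 11.9 and 13.5 CPM in the Nestin-Cre libraries (-0.57 ± 0.08, edgeR quasi-likelihood test, adjusted p = 4.98e-07). Tcf7l2 and Tcf7l1, its relatives, missed the threshold, at 23.7 ± 0.693 and 23.6 ± 1.96 CPM for Tcf7l2 and 15.4 ± 0.568 and 16.1 ± 0.0722 CPM for Tcf7l1. The 95% intervals of their ratios were 0.910 to 1.10 and 0.940 to 1.17. Lef1 was scarce, with 1.82 and 2.02 CPM against 1.13 and 1.73 CPM (adjusted p = 0.183).

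Several genes of these roles are known as direct targets of the pathway, and only some of them limit it. Put side by side after their values were known, Nkd1 rose and Tcf7 fell, while Axin2, Znrf3, Apcdd1, Notum, Rnf43, Lgr5 and Lef1 missed the threshold.

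The start regions of 4 genes that changed are shown because they differ in direction and role: the receptor Fzd1, the ligands Wnt7a and Wnt5b, which fell, and the inhibitor Nkd1, which rose. Each line gives the 250 bases before a RefSeq start site, from the gene's own strand (RefSeq, GRCm38.p6), and capitals mark the TCF and LEF core CTTTGAT. For Wnt5b, with 3 start sites, the window shown was picked because it held the core.
Fzd1, chr5:4758217-4758466, minus strand: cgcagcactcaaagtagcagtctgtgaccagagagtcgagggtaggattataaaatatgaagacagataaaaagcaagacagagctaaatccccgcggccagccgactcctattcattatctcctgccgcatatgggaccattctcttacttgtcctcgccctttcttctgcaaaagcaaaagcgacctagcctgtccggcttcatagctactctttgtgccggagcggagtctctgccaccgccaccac
Wnt7a, chr6:91411354-91411603, minus strand: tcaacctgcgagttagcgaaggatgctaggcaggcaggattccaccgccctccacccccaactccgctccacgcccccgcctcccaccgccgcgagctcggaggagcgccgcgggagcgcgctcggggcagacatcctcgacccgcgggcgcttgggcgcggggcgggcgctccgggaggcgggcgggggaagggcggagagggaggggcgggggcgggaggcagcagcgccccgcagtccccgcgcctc
Nkd1, chr8:88527383-88527632, plus strand: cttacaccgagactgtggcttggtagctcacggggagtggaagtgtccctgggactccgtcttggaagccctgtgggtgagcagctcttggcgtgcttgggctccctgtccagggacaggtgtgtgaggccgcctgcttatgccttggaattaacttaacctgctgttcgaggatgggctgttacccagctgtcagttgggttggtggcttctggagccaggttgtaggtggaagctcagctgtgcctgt
Wnt5b, chr6:119449387-119449636, minus strand, one of 3 start sites: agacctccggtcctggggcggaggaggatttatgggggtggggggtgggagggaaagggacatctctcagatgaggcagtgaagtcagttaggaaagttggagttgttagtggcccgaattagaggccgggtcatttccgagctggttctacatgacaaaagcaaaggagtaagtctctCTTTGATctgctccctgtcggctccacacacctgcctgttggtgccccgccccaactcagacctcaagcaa
The Wnt7a window was the richest in G and C, at 77.6% with 34 CG pairs, against 51.2% for Fzd1, 58.4% for Nkd1 and 55.6% for Wnt5b. Nkd1, annotated from 88521354, and Wnt5b, annotated up to 119544347, have their windows inside the gene and not at its outer start. The core was searched as CTTTGAA or CTTTGAT on both strands in windows of 300 bases, from 250 before to 50 after the start. It was found in 3 of 48 windows of the 38 Wnt genes in the RefSeq table, or 6.25%, against 8.65% of all 32851 windows. The median G and C content was 66.5% in the Wnt windows and 52.7% in all windows, and its part in these shares was not tested. The 3 windows belonged to Dkk1, Wnt11 and Wnt5b, and in Wnt5b the core began 71 bases before the start site. A match is a description of these letters and not a binding site.

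Other genes of the pathway were described from lists that do not overlap the Wnt genes above. Of 117 such genes, 103 were tested, of which 16 were higher and 28 lower, or 42.7% against 33.1% of all genes, with a median log2 fold change of -0.03. Among alternative receptors and cofactors, 3 of 10 fell and none rose (30.0% called, close to the 33.1% of all genes). They were Lrp4 (57.3 ± 1.46 to 39.6 ± 0.802 CPM), Ror1, a receptor for Wnt5a (6.76 ± 0.128 to 4.36 ± 0.468 CPM), and Tspan12, a partner of Fzd4 (125 ± 0.432 to 115 ± 0.421 CPM). Of the R-spondins and Norrin, 3 genes were tested and 66.7% called, against 33.1% of all genes. Rspo2 rose from 9.203 ± 0.317 to 11.2 ± 0.821 CPM and the X-linked Ndp fell from 21.6 ± 0.903 to 18.4 ± 1.27 CPM. Rspo3, at 6.12 ± 0.0725 and 5.68 ± 0.832 CPM, did not pass (adjusted p = 0.559). Both calls were lost without control replicate 2, at an adjusted p of 0.133 for Rspo2 and 0.0963 for Ndp. Rspo2 was also lost without Nestin-Cre replicate 2 (0.248) and Ndp without Nestin-Cre replicate 1 (0.183).

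Among other secreted or surface antagonists 4 of 9 rose and 2 fell (66.7% called, against 33.1% of all genes). Sostdc1 and Shisa3 had the widest differences of the 103 genes tested. Choroid plexus markers, given further on, rose in the same libraries, and their part in these values was not tested. Sostdc1, a secreted antagonist of Wnt and BMP signals, had 1.78 and 2.06 CPM in control and 14.0 and 13.5 CPM in the Nestin-Cre libraries (2.83 ± 0.14, edgeR quasi-likelihood test, adjusted p = 2.06e-19). Draxin, an axon guidance protein that also binds Wnt co-receptors, rose from 85.7 ± 2.08 to 140.3 ± 0.168 CPM (0.71 ± 0.03, adjusted p = 3.56e-19). Shisa3, which holds Frizzled and FGF receptors back in the endoplasmic reticulum, fell from 25.2 ± 0.972 to 7.07 ± 0.206 CPM (-1.83 ± 0.09, adjusted p = 9.03e-20).

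Inside the cell, 7 of 23 genes of the Dishevelled and destruction complex list fell and none rose, with Ankrd6 (-0.32 ± 0.05), the tankyrase gene Tnks (-0.16 ± 0.03) and Fbxw11, a ubiquitin ligase subunit that recognises beta-catenin (-0.16 ± 0.03), in front by p. The median of that list was 0.003 on the log2 scale, and 30.4% of it was called, against 33.1% of all genes. Called shares were 21.1% for the nuclear cofactors, 23.1% for the planar polarity genes and 77.8% for the glypican list below. Of 19 nuclear cofactors 2 rose and 2 fell, among them the corepressor genes Tle3 (-0.26 ± 0.03) and Tle1 (-0.12 ± 0.04) and the beta-catenin antagonist Cby1 (0.19 ± 0.04). Tle1 was not called without control replicate 2 (adjusted p = 0.0765) or Nestin-Cre replicate 2 (adjusted p = 0.0743). Of 13 planar polarity genes 1 rose and 2 fell: Scrib was higher (0.15 ± 0.03), Daam2 lower (-0.47 ± 0.05) and Vangl1 lower (-0.32 ± 0.09), the last not without control replicate 2 (adjusted p = 0.0797). Of 9 glypicans and sulfation enzymes, which shape Wnt spread at the cell surface, 4 rose and 3 fell. The X-linked Gpc3 rose from 6.75 ± 0.516 to 16.03 ± 0.0656 CPM, Gpc1 from 168 ± 4.58 to 194 ± 4.17 CPM, and Ndst1 fell from 178 ± 0.0917 to 133 ± 3.80 CPM.

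Genes often used as beta-catenin targets but also driven by other signals moved both ways, with 4 of 17 higher and 8 lower. That is 70.6% called, against 33.1% of all genes. The cell cycle genes Ccnd1 (1413 ± 3.67 to 918 ± 5.21 CPM) and Ccnd2 (1116 ± 2.43 to 797 ± 2.79 CPM) fell, as did the adhesion receptor Cd44 (199 ± 7.60 to 102 ± 1.71 CPM). The median log2 fold change of the list was -0.162. The genes that follow were named after their values were seen. The widest fall was that of Jag1 (43.3 ± 1.82 to 17.7 ± 0.271 CPM, -1.29 ± 0.06, edgeR quasi-likelihood test, adjusted p = 1.48e-19). The widest rises, at low levels, were those of Msx1 (0.711 ± 0.149 to 2.30 ± 0.397 CPM, log2 fold change 1.67 ± 0.28, adjusted p = 7.14e-06) and Lmx1a (0.622 ± 0.0234 to 1.94 ± 0.406 CPM, 1.64 ± 0.30, adjusted p = 2.81e-05). Msx1 and Lmx1a, both transcription factor genes, and the untested Msx2 are also on the cortical hem list.

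**Figure D4:**
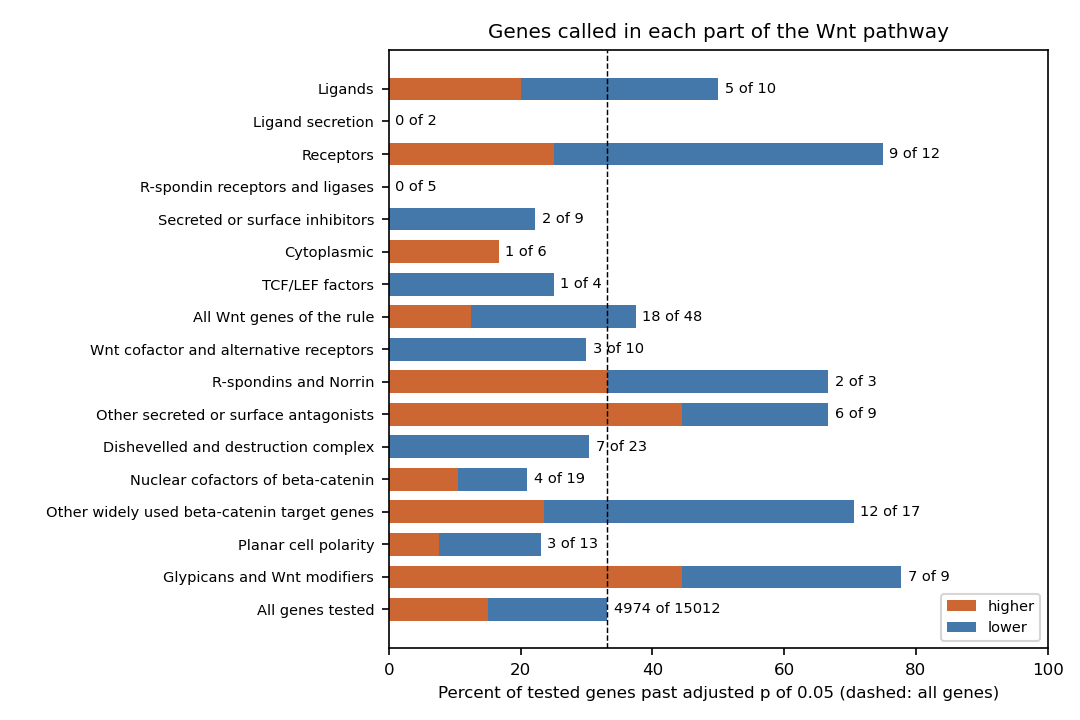
Percent of tested genes past an adjusted p of 0.05 in each role of the Wnt genes and in each list of other pathway genes (x axis), split into higher and lower in the Nestin-Cre libraries, with the counts beside each bar. The dashed line marks the 33.1% called among all genes; receptors (9 of 12) lie above it, and the cytoplasmic genes (1 of 6) and R-spondin branch (0 of 5) below it.

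Marker genes of other cells moved in the same libraries, and their part in the Wnt differences was not tested. The counts below can be set beside all genes tested, of which 15.1% were called higher and 18.1% lower. In bulk libraries, fewer cells of a type and less RNA per cell cannot be told apart. Genes said to lead a list had its highest mean CPM, not scaled for exon length. Of 14 choroid plexus genes 12 rose and none fell, led by Ttr and Enpp2, and their summed level was 265 to 272 CPM in control and 1481 to 1494 CPM in the Nestin-Cre libraries. The cortical hem list, led by Bmp7 and Rspo2, had 4 of 7 tested genes higher and a sum of 61.5 to 63.9 against 68.7 to 70.1 CPM. Fibroblast and meningeal genes, led by Col3a1 and Col1a1, fell for 8 of 11 and rose for 1, with sums of 193 to 195 against 63.1 to 66.9 CPM. Astrocyte genes, led by Sparcl1 and Gfap, fell for 6 of 8 and rose for 1 (3149 to 3168 against 2191 to 2196 CPM), and radial glial genes fell for 6 of 13 and rose for 2. Neuronal genes, led by Map2 and Tubb3, rose for 7 of 12 and none fell (2614 to 2628 against 2982 to 3002 CPM). Endothelial genes, led by Slc2a1 and Flt1, fell for 3 of 10 and rose for 2 (191.8 to 192 against 109.1 to 113.7 CPM). Most of that sum was Slc2a1, at 169 ± 0.330 and 94.0 ± 1.72 CPM, and the median log2 fold change of the list was 0.111, with Kdr and Slco1a4 higher. Microglial genes, led by P2ry12 and Ctss, fell for 6 of 7 and none rose (7.69 to 9.23 against 2.96 to 3.75 CPM). Mural genes fell for 4 of 8 (Pdgfrb, Anpep, Vtn and Rgs5) and rose for 1 (Acta2), with a median log2 fold change of -0.639. Their sum was 131.7 to 132.1 against 130.9 to 133.6 CPM, and most of it was Notch3, at 101 ± 0.972 and 104.5 ± 1.59 CPM (adjusted p = 0.255). Interneuron genes, led by Gad1 and Sst, fell for 6 of 10 and rose for 2 (280.5 to 284.8 against 267.8 to 275.8 CPM). Oligodendrocyte lineage genes, led by Olig1 and Olig2, rose for 5 of 10 and fell for 1 (1474 to 1517 against 1630 to 1669 CPM). The ciliated cell list, led by Foxj1 and Gmnc, had 1 of 6 genes higher and 1 lower and gave 40.5 to 41.5 against 35.97 to 36.5 CPM. Most of that sum was Foxj1, which fell from 33.5 ± 1.475 to 24.55 ± 0.498 CPM, while Gmnc rose from 0.840 ± 0.117 to 4.99 ± 0.147 CPM. No marker in any list was at 0 in both libraries of a group.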

How the data were processed

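Each of the 4 libraries came with a deposited table of whole-number counts by gene symbol, which the authors had not normalized. HISAT2 2.2.1 and the mm10 build are named in the submitters' processing notes, as are HTSeq 0.12.4 and DESeq2 1.26.0. Strand setting and annotation: not given in the sources used here. Exons of 11 Wnt genes overlap another annotated gene, among them the called genes Wnt7b, Wnt5a, Fzd5 and Fzd6, whose reads may not be told apart from those of the partner. The 5 summary lines, which held 25.2% to 26.2% of all entries, were left out. Groups and replicate numbers came from the sample titles. The chi-square of counts per gene was 1.96 between the controls and 2.20 between the Nestin-Cre libraries, above the 1 of sampling alone. Each library was kept, with no cutoff set on this value.

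Counts were fitted in edgeR 4.0.16 (R 4.3.3) with filterByExpr, trimmed-mean-of-M-values scaling and the quasi-likelihood F test with the legacy option off. P-values were adjusted by Benjamini-Hochberg over 15012 genes, with a threshold of 0.05. Intervals are 95% from the standard error of the fit. With 2 against 2 libraries an exact two-sided permutation p cannot go below 0.333, so none was used. Exon lengths and positions came from GENCODE M21 (GRCm38, the assembly of mm10), in which 95.75% of symbols were found. Alternatives used DESeq2 1.42.0 and limma 3.58.1 (voom), other scalings, filters and thresholds, a replicate block and leaving out each library.

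Every tested Wnt gene past the threshold is named with values, and per-library values are given for the 12 of smallest p, the scarce or borderline genes among the rest being added after their values were seen. For each list of other pathway genes the 3 of smallest p are named, with Jag1, Msx1 and Lmx1a added after their values were seen. For each cell type the 2 genes of highest mean CPM are named, not scaled for exon length. The Wnt genes and all lists were chosen with earlier results of these data known.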

Additional observations from a re-analysis of the deposited data

How the results depend on the processing

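Of the 18 Wnt genes called, 7 (Dkk3, Fzd1, Fzd8, Fzd10, Nkd1, Tcf7 and Wnt7a) kept their call under all 15 alternatives, and none of the 18 changed direction. Over the 48 Wnt genes, 657 of 715 alternative values stayed on the same side of the threshold in the same direction, 34 lost a call, 2 gained one and 22 changed sign, and over the 24 other pathway genes named, 27 of 360 lost a call and 1 changed sign. The number of Wnt genes called higher went from 6 to 3 with DESeq2 and to 2 in the test against a 1.2-fold change, and the number lower from 12 to 5 in the latter. Over all genes DESeq2 called 1055 higher and 1642 lower, the test against 1.2-fold called 279 and 760, and a threshold of 0.01 called 1490 higher. When 1 library was left out, 4 to 6 Wnt genes were higher and 10 to 12 lower, and 1738 to 1843 of all genes were higher and 2249 to 2442 lower. With a replicate block 6 Wnt genes were higher and 12 lower, and 2443 and 2881 of all genes. The replicate numbers share no stated source, the deviations of same-numbered libraries were not correlated (Pearson r = -0.0165 over 15012 genes), and the block changed no call of a Wnt gene. The cause of these changes was not tested.

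Sign changes were limited to genes that missed the threshold. With upper quartile scaling, Apc gave 0.0004, Axin1 0.0069, Sfrp4 0.0113 and Wnt2b 0.0165. Tcf7l2 gave -0.0012 with DESeq2, -0.0005 with voom and -0.0027 with the block, and Wif1 gave 0.033 with voom. Leaving out 1 library gave ranges of -0.3392 to 0.0135 for Fzd4, -0.0486 to 0.0137 for Sfrp4, -0.0897 to 0.0804 for Tcf7l2, -0.4666 to 0.6317 for Wif1, -0.1204 to 0.032 for Wls, -0.1412 to 0.1231 for Wnt2b, -0.0102 to 0.3239 for Wnt3, -0.3649 to 0.2122 for Wnt9a, -0.0157 to 0.0564 for Znrf3 and -0.2642 to 0.0348 for Rspo3. The filter on low counts was applied anew to the 3 libraries left, and the lone library of a group was assumed to vary like the others. Depth limits the scarcest Wnt genes: Wnt11, Lgr6, Dkk2, Sfrp5 and Wif1, tested at under 1 CPM in both groups, all missed the threshold with wide intervals.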
